A study of Caenorhabditis elegans with 8 samples.

Results

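The insulin/IGF signalling pathway of Caenorhabditis elegans was described through the mRNA levels of 9 of its core genes, daf-2, age-1, pdk-1, akt-1, akt-2, sgk-1, daf-18, daf-16 and pqm-1. They were chosen by symbol from the 17826 genes of the deposited table, and all 9 were among the 12382 genes abundant enough to be tested. The table holds polyadenylated RNA from whole worms of the wild-type strain N2, taken on day 1 of adulthood. In the zidovudine group, 4 samples had been exposed from larval stage 4 to 50 µM zidovudine, a thymidine analogue used against retroviruses, for 24 h. In the DMSO group, 4 samples had received the vehicle for the same time. By the protocol in the labels, 5-fluorouracil, a pyrimidine analogue, was in the plates as well, with no group singled out, so it was taken as common to both. The labels name no separate cultures, so p-values measure only the spread between these samples.

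In worms, insulin-like peptides bind the receptor DAF-2, which acts through the PI3K AGE-1 to raise phosphatidylinositol trisphosphate in the membrane. That lipid recruits the kinases PDK-1, AKT-1 and AKT-2, and the phosphatase DAF-18 removes it again. Active AKT phosphorylates the FOXO transcription factor DAF-16 and keeps it out of the nucleus. When signalling is low, DAF-16 enters the nucleus and worms resist stress and live longer. The zinc finger factor PQM-1 leaves the nucleus as DAF-16 enters it. Much of this control acts on the proteins, through phosphorylation and location, which mRNA levels do not show.

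The 9 mRNAs differed widely in abundance, and none differed between the groups at an adjusted p under 0.05 (limma, Benjamini-Hochberg adjustment over all genes tested). At an unadjusted p under 0.05 there was 1 of the 9, pqm-1. The background for these counts was 0.17% of all genes tested at the adjusted threshold and 11.8% at the unadjusted one. The pqm-1 mRNA was also the only member for which the zidovudine and DMSO libraries did not overlap, which held for 6.65% of all genes tested. Positive log2 fold changes were seen for 4 of the 9 members, against 52.3% of all genes tested, and the members' median was -0.025, against 0.0082 over all genes tested.

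The libraries held 31756275 to 56930820 reads assigned to genes in the zidovudine group and 30449021 to 44239062 in the DMSO group. Per the labels, 7 libraries shared a flow cell and DMSO 4 ran on a different one, so flow cell and library cannot be told apart. It listed 8.24% of all genes with 0 reads, against 1.07% to 2.17% in the others. It was also the highest or the lowest DMSO library for all 9 members, which held for 68% of all genes tested. Values without it are therefore given for each member.

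On the scale of CPM (reads scaled to library size) per kb of exon, daf-18 was the most abundant member and akt-2 the least. The daf-18 level was 251 ± 20 in zidovudine worms and 242 ± 13 in DMSO worms (SD, n = 4 each). The akt-1 level was 109 ± 5.9 in zidovudine worms and 104 ± 9.9 in DMSO worms. Every library placed daf-18 above akt-1 and akt-1 above the other 7 members. A middle group followed, with daf-16 at 35.9 ± 2.2 in zidovudine worms and 36.5 ± 3.0 in DMSO worms, and age-1 at 36.0 ± 3.9 in zidovudine worms and 33 ± 1.9 in DMSO worms. The pqm-1 level was 28.7 ± 1.0 in zidovudine worms and 34.3 ± 1.1 in DMSO worms. Over all 8 libraries the ranges of daf-16, age-1 and pqm-1 overlapped, at 32.3 to 39.4 for daf-16, 30.3 to 39.4 for age-1 and 27.8 to 35.5 for pqm-1. The receptor gene daf-2 came next at 19 ± 1.3 in zidovudine worms and 19.4 ± 1.7 in DMSO worms, clear of its neighbours on both sides. The lowest were sgk-1, pdk-1 and akt-2, whose ranges of 8.33 to 12.62, 7.03 to 10.1 and 4.71 to 8.45 overlapped. Lengths are the union of all annotated exons, so the level per kb is understated for a gene whose main transcript uses few of them.

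**Figure D1:**
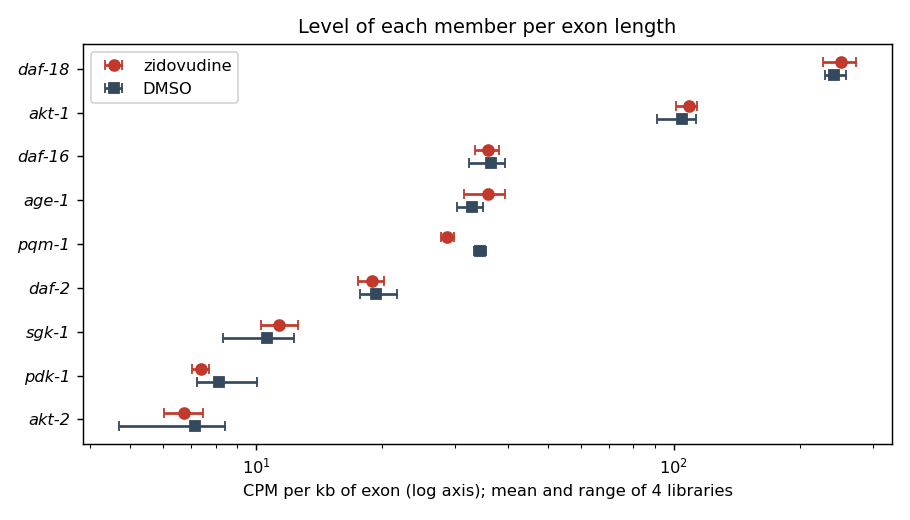
Level of each member in CPM per kb of exon, on a log axis, with zidovudine above DMSO in each row; symbols are means and bars the range of 4 libraries. The daf-18 level, at 251 with zidovudine and 242 with DMSO, lies well above all others, and the pqm-1 ranges of the groups do not overlap.

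The gene daf-2 (WBGene00000898; chromosome III, 2994514 to 3040846, minus strand, WBcel235, protein coding) encodes the worm insulin/IGF receptor. Its mRNA was at 7.19, 7.25, 7.39 and 7.37 log2 CPM in zidovudine 1 to 4, against 7.20, 7.28, 7.32 and 7.50 in DMSO 1 to 4. The groups overlapped throughout, with DMSO 4 the highest of all 8 libraries. The log2 fold change, zidovudine minus DMSO, was -0.026 (SE 0.073, limma adjusted p = 0.905). Its 95% interval ran from -11.8% to 9.36% in level, and without DMSO 4 the log2 fold change was 0.032. At least 4810 reads lay behind each value.

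The gene age-1 (WBGene00000090; chromosome II, 11519328 to 11527054, minus strand) encodes the catalytic subunit of PI3K. Its level was 7.07, 6.95, 7.28 and 7.26 log2 CPM in zidovudine 1 to 4, against 7.03, 7.10, 7.04 and 6.89 in DMSO 1 to 4. Zidovudine 3 and 4 lay above every DMSO library, while zidovudine 1 and 2 lay within the DMSO range. The log2 fold change was 0.12 (SE 0.077, limma adjusted p = 0.554), the highest of the 9. Its interval of -2.85% to 22.1% includes no difference, and without DMSO 4 the log2 fold change was 0.083. Of its exon sequence, 192 nt, or 4.89%, is shared with B0334.10 on the opposite strand, and the sources used here do not state whether counting used the strand. The regulatory subunit of the same kinase is encoded by aap-1, which was at 6.44, 6.36, 6.66 and 6.64 log2 CPM in zidovudine 1 to 4, against 6.35, 6.49, 6.52 and 6.18 in DMSO 1 to 4. Both subunit mRNAs were lowest in DMSO 4 and highest in zidovudine 3, and the log2 ratio of aap-1 over age-1 within a library was -0.61 ± 0.017 with zidovudine and -0.63 ± 0.090 with DMSO, or -0.60 ± 0.082 in DMSO 1 to 3.

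The lipid phosphatase gene daf-18 (WBGene00000913; chromosome IV, 420011 to 425177, minus strand) opposes AGE-1. It was measured from 23992 to 47675 reads per library. The values were 9.66, 9.56, 9.76 and 9.83 log2 CPM in zidovudine 1 to 4, against 9.60, 9.75, 9.68 and 9.58 in DMSO 1 to 4. The groups overlapped, and the log2 fold change was 0.049 (SE 0.075, limma adjusted p = 0.81), with an interval of -7.41% to 15.7%. Without DMSO 4 the log2 fold change was 0.026. The log2 ratio of daf-18 over age-1 within a library was 2.56 ± 0.055 with zidovudine and 2.64 ± 0.049 with DMSO (SD, n = 4 each). These ratios overlapped between the groups and are given without a test, as a description of phosphatase against kinase mRNA.

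The kinases downstream of the lipid comprised an abundant mRNA, akt-1, and 3 scarce ones from genes on the X chromosome. PDK-1 activates the AKT kinases, and SGK-1 is a related kinase. The gene akt-1 (WBGene00000102; chromosome V, 10248905 to 10252845, plus strand) was at 7.93, 7.85, 8.02 and 8.01 log2 CPM in zidovudine 1 to 4, against 7.88, 7.98, 8.004 and 7.69 in DMSO 1 to 4. All libraries but DMSO 4 lay within 7.85 to 8.02, and the log2 fold change was 0.062 (SE 0.074, limma adjusted p = 0.749). Without DMSO 4 it was -0.0031.

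The second AKT gene, akt-2 (WBGene00000103; chromosome X, 14147700 to 14152070, plus strand), varied most among the 9 and was the member most affected by DMSO 4. It was at 4.16, 4.05, 3.85 and 3.94 log2 CPM in zidovudine 1 to 4, against 4.24, 4.17, 4.33 and 3.49 in DMSO 1 to 4. All 4 zidovudine libraries lay below DMSO 1, 2 and 3, and all 4 lay above DMSO 4. The gap between DMSO 4 and the nearest DMSO library was 0.807 of the group's range, which did not reach Dixon's critical value for 4 samples. Over all 8 libraries the log2 fold change was -0.061 (SE 0.16, limma adjusted p = 0.902). Without DMSO 4 it was -0.25 (SE 0.1, limma adjusted p = 0.405), which was again not past the threshold. Against DMSO 1 to 3 alone, groups that did not overlap occurred for 9.56% of all genes tested. The log2 ratio of akt-2 over akt-1 within a library was -3.95 ± 0.20 with zidovudine and -3.83 ± 0.26 with DMSO, or -3.71 ± 0.091 in DMSO 1 to 3, and the groups overlapped with or without DMSO 4.

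For pdk-1 (WBGene00003965; chromosome X, 1321344 to 1327986, plus strand), the values were 4.14, 4.09, 4.23 and 4.20 log2 CPM in zidovudine 1 to 4, against 4.23, 4.19, 4.13 and 4.61 in DMSO 1 to 4. The other 7 libraries lay within 4.09 to 4.23, and DMSO 4 stood above them. The log2 fold change was -0.13 (SE 0.11, limma adjusted p = 0.656), and without DMSO 4 it was -0.019. For sgk-1 (WBGene00004789; chromosome X, 16254842 to 16262122, minus strand), the values were 4.29, 4.11, 4.08 and 4.37 log2 CPM in zidovudine 1 to 4, against 4.15, 4.18, 4.34 and 3.77 in DMSO 1 to 4. Here DMSO 4 was the lowest library, and the log2 fold change of 0.10 (SE 0.12, limma adjusted p = 0.742) was -0.0091 without it. The 3 X-linked kinase mRNAs had 491 to 1152 reads per library, a counting error of at most 4.51% of the value. DMSO 4 was lower than the other DMSO libraries for akt-2 and sgk-1 and higher for pdk-1, and the cause was not tested.

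The gene daf-16 (WBGene00000912; chromosome I, 10750498 to 10776703, plus strand) encodes the FOXO factor at the end of the pathway. Its mRNA was at 6.95, 6.99, 7.10 and 7.14 log2 CPM in zidovudine 1 to 4, against 6.90, 7.11, 7.09 and 7.18 in DMSO 1 to 4. DMSO 1 was the lowest library and DMSO 4 the highest, with all zidovudine libraries between them. The log2 fold change was -0.025 (SE 0.071, limma adjusted p = 0.907), and its interval ran from -11.5% to 9.17%. Without DMSO 4 the direction turned, with a log2 fold change of 0.013 that did not pass the threshold either. The table gives 1 value per gene, so the transcripts of daf-16, which encode different isoforms, are not told apart. Its exons share 84 nt, or 2.28%, with the noncoding gene H36N01.5 on the opposite strand.

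The gene pqm-1 (WBGene00004096; chromosome II, 11150391 to 11152595, minus strand) showed the clearest difference among the 9. It was at 4.92, 5.00, 4.92 and 5.02 log2 CPM in zidovudine 1 to 4, against 5.19, 5.25, 5.27 and 5.17 in DMSO 1 to 4. Each zidovudine library lay below each DMSO library, a pattern in that direction shown by 2.82% of all genes tested. The mean was 4.96 ± 0.052 in zidovudine worms and 5.22 ± 0.046 in DMSO worms (SD, n = 4 each), a 1.20-fold lower level with zidovudine. The log2 fold change was -0.26 (SE 0.071, limma adjusted p = 0.174), so it did not pass the threshold over all genes. Its interval ran from -24.7% to -7.13%, and its p ranked 171 among the 12382 genes tested.

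For pqm-1 the libraries of each group lay close together. The pooled SD within groups was 0.049 on the log2 scale, lower than in 98.3% of genes tested, where the median was 0.15. Counting error was at most 3.14% of the value, from 1012 to 1778 reads per library. Without DMSO 4 the log2 fold change was -0.27 (limma adjusted p = 0.157), and across 20 other settings it ran from -0.29 to -0.24. Only with sample quality weights, which gave DMSO 4 and zidovudine 2 the lowest weights, did it pass (-0.28, limma adjusted p = 0.0477). In that setting 1.2% of all genes passed. The log2 ratio of pqm-1 over daf-16 within a library was -2.03, -1.99, -2.18 and -2.12 in zidovudine 1 to 4, against -1.70, -1.86, -1.82 and -2.01 in DMSO 1 to 4. This ratio was lower on average with zidovudine, but zidovudine 2 lay above DMSO 4, so the groups overlapped. Every zidovudine library lay below DMSO 1 to 3, whose mean was -1.79 ± 0.080, against -2.08 ± 0.085 with zidovudine. The ratio is given without a test.

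**Figure D2:**
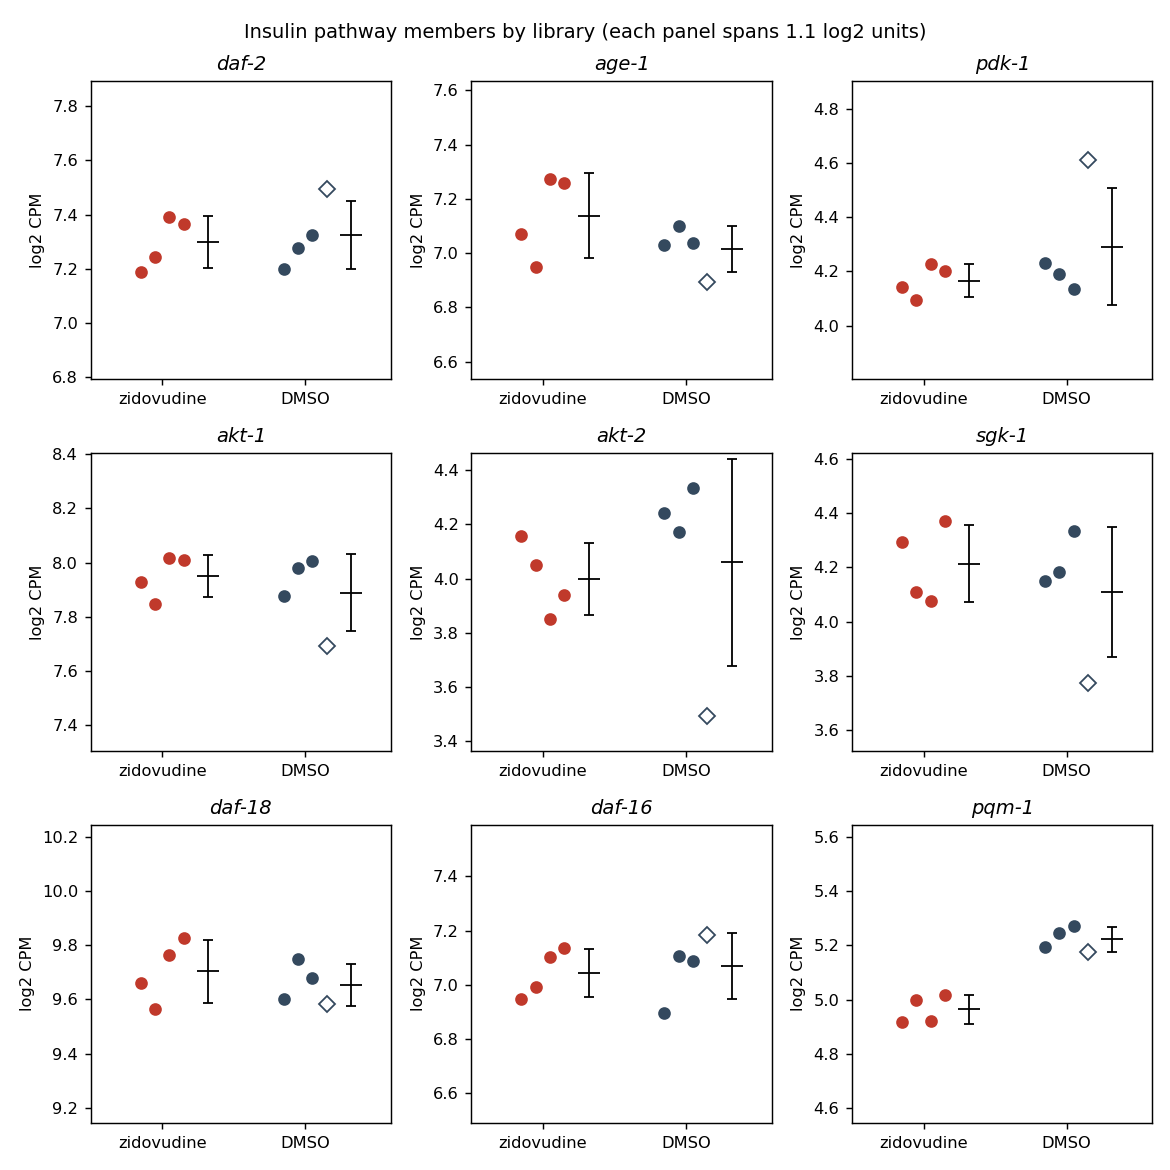
Level of each member in log2 CPM, 1 point per library, zidovudine left of DMSO, with the mean and SD of 4 libraries beside them; the open diamond is DMSO 4. Each panel spans 1.1 log2 units, and pqm-1 is the panel in which the groups do not overlap, at 4.92 to 5.02 with zidovudine and 5.17 to 5.27 with DMSO.

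**Figure D3:**
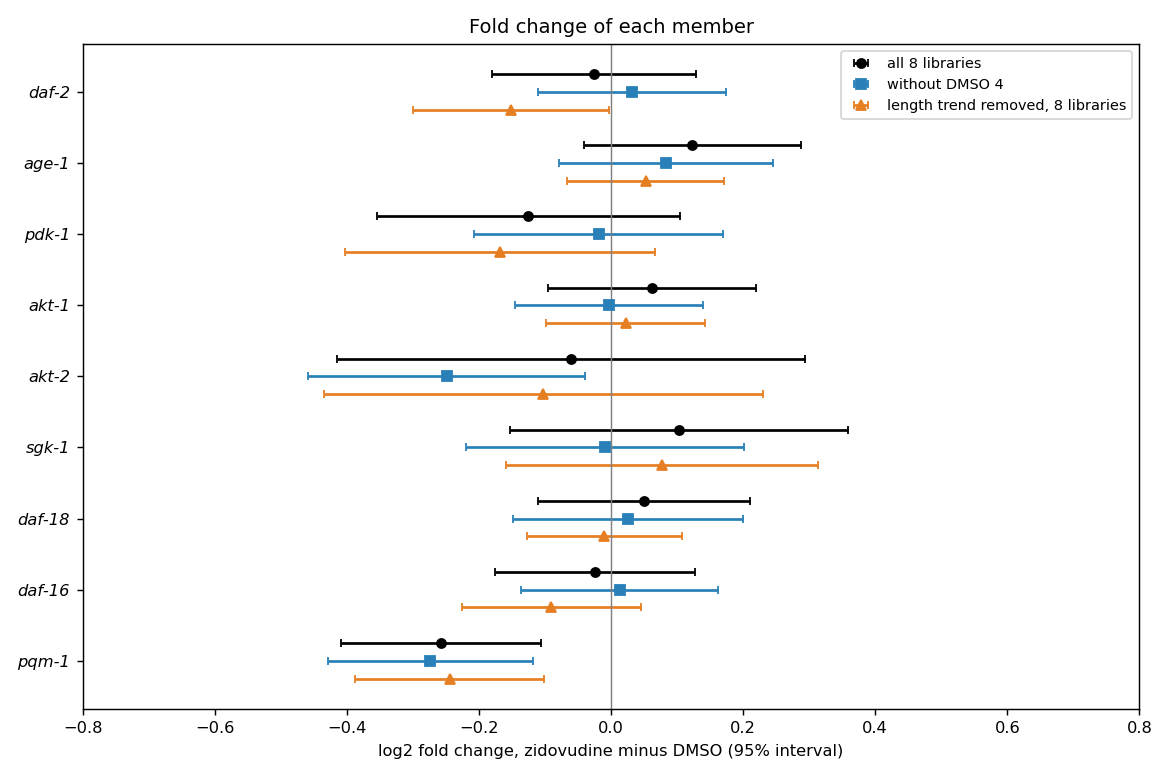
Log2 fold change of each member, zidovudine minus DMSO, with its 95% interval in all 8 libraries, without DMSO 4 and with the trend of each library on exon length removed. The pqm-1 values lie between -0.27 and -0.24 in the 3 settings, while akt-2 is at -0.061 with all libraries and -0.25 without DMSO 4.

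The members' intervals over all 8 libraries hold for the values as deposited, and other settings moved some of them. All 9 intervals lay within a 1.5-fold difference in either direction, which held for 73.1% of all genes tested. The narrowest belonged to the abundant daf-16, daf-2, akt-1 and daf-18 and to pqm-1, with an SE of 0.071 to 0.075. Libraries can differ in the level of long against short mRNAs. The median exon length of the members was 2423 nt, against 1438 nt over all genes tested, with pqm-1 below the latter. The fits were therefore repeated with each library's trend on exon length removed. Removing it moved daf-2 from 7.39 to 7.25 log2 CPM in zidovudine 3 and from 7.50 to 7.63 in DMSO 4. The longest, daf-2 with 8296 nt, then had a log2 fold change of -0.15 (limma adjusted p = 0.405) and daf-16 one of -0.09 (limma adjusted p = 0.575). The shortest, pqm-1 with 1087 nt, was at -0.24 (limma adjusted p = 0.172).

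**Figure D4:**
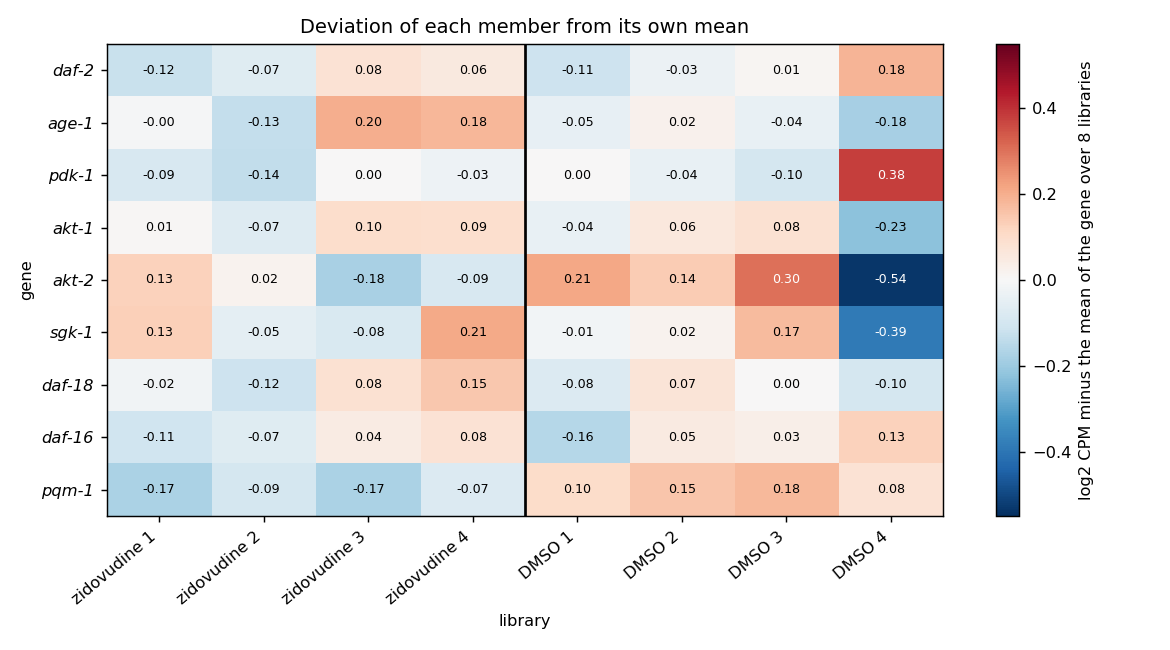
Deviation of each member from its own mean over 8 libraries, in log2 units, with libraries in columns, zidovudine left of DMSO. The strongest deviations are those of DMSO 4, at -0.54 for akt-2, -0.39 for sgk-1 and 0.38 for pdk-1, whereas the pqm-1 row is negative in all zidovudine and positive in all DMSO libraries.

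The genes most like daf-2, daf-16 and pqm-1 across the 8 libraries were found by the root mean square difference of centred log2 CPM from each of the other 12381 tested genes. For daf-2 they were ama-1, which encodes the large subunit of RNA polymerase II, at 0.025, nrd-1 at 0.027 and Y53F4B.39 at 0.029, where the median gene was at 0.18. For daf-16 they were Y53F4B.39 at 0.029, the ribosomal protein gene rps-6 at 0.029 and acl-7 at 0.03. The nearest genes to pqm-1 were further away, with the cytochrome P450 gene cyp-25A1 at 0.058, igeg-1 at 0.062 and R11F4.1 at 0.065. The median gene was also further from pqm-1, at 0.21, against 0.18 for daf-2 and 0.18 for daf-16. The log2 fold change of cyp-25A1 was -0.32, that of R11F4.1 -0.24 and that of igeg-1 -0.17. These genes were chosen for likeness over all 8 libraries, group difference included, so values below 0 follow from the choice. With sample quality weights cyp-25A1 passed the threshold as pqm-1 did (-0.36, limma adjusted p = 0.0453). This likeness is a description over libraries that share their preparation.

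Genes that act beside the receptor and its kinases gave no difference past the threshold. Of 12 adaptors and modulators of DAF-2 signalling listed, 7 were tested, with 0 past the adjusted and 0 past the unadjusted threshold (limma). The background was 0.17% and 11.8% of all genes tested, so a count of 0 among 7 says little. The median log2 fold change of the 7 was 0.020, against 0.0082 over all genes tested. The 4 with the smallest p were aap-1 (0.14), eak-7 (0.071), which acts in parallel to AKT-1 on DAF-16, the insulin receptor substrate gene ist-1 (0.14) and asna-1 (-0.059), an ATPase gene needed for insulin secretion. Without DMSO 4, aap-1 was at 0.070, eak-7 at 0.034 and ist-1 at 0.050. The gene pptr-1, whose phosphatase subunit acts on AKT-1, was at -0.012 (SE 0.061), and rict-1, for the TORC2 subunit upstream of SGK-1, was at 0.020 (SE 0.063).

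Of 20 regulators and cofactors of DAF-16 listed, 19 were tested, with 0 past the adjusted threshold, 1 past the unadjusted one, where the background was 11.8%, and a median of 0.041, against 0.0082 over all genes tested. The kinase gene cst-2 had 2.31, 2.28, 2.57 and 2.71 log2 CPM in zidovudine 1 to 4, against 2.42, 2.35, 1.70 and 1.77 in DMSO 1 to 4 (log2 fold change 0.41, SE 0.19, limma adjusted p = 0.413). DMSO 1 and 2 lay within the zidovudine range, and cst-2 has a close copy, cst-1 (-0.078), with which reads can be shared, so both values are uncertain. The beta-catenin gene bar-1 was at 0.35, the cofactor gene smk-1 at 0.13 (0.079 without DMSO 4) and ftt-2, whose protein holds DAF-16 in the cytoplasm, at 0.12. The cofactor hcf-1 (0.041), the sirtuin gene sir-2.1 (-0.0085), the factor skn-1 (0.026) and hsf-1 (-0.052) were near 0.

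Transcripts known to depend on DAF-16 were compared as class I, which are higher when DAF-16 is active, and class II, which are lower then and are linked to PQM-1. Of 30 class I genes listed, 23 were tested. None passed the adjusted threshold, 8 passed the unadjusted one, and the groups did not overlap for 4, where the background was 11.8% and 6.65% of all genes tested. The median log2 fold change was 0.090, with 14 above 0 and 9 below. The genes furthest from 0 were at -1.23 and 0.40, so the list held values on both sides. Of 16 class II genes listed, 11 were tested, with 0 past the adjusted threshold, 4 past the unadjusted one and 1 without overlap. Their median was 0.082, with 8 above 0 and 3 below.

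Among class I genes, the ferritin gene ftn-1 was lower in every zidovudine library. It was at 0.99, 0.67, 1.10 and 0.49 log2 CPM in zidovudine 1 to 4, against 1.74, 2.20, 2.16 and 1.38 in DMSO 1 to 4 (log2 fold change -1.06, SE 0.22, limma adjusted p = 0.0824). It rests on 49 to 162 reads per library, and it passed the threshold in 4 of 20 other settings, among them without DMSO 4 (-1.22, limma adjusted p = 0.0165). The transcription factor gene mdl-1 lay the other way, at 5.30, 5.07, 5.25 and 5.26 in zidovudine 1 to 4, against 4.92, 5.01, 4.51 and 4.81 in DMSO 1 to 4 (0.40, SE 0.10, limma adjusted p = 0.136). The alcohol dehydrogenase gene sodh-1 was at 5.25 to 5.47 with zidovudine and 4.87 to 5.15 with DMSO (0.28, limma adjusted p = 0.216). The values of dod-3 overlapped, at 0.28 to 2.29 with zidovudine and 1.85 to 3.06 with DMSO (-1.23, SE 0.45, limma adjusted p = 0.359), and without zidovudine 2 it passed (-1.61, limma adjusted p = 0.0484). The superoxide dismutase gene sod-3, a common reporter of DAF-16 activity, was at 0.13 (SE 0.25) from 54 to 160 reads per library.

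Among class II genes, dod-24 was higher in every zidovudine library. It was at 5.74, 5.66, 5.73 and 5.83 log2 CPM in zidovudine 1 to 4, against 5.46, 4.92, 5.32 and 5.21 in DMSO 1 to 4 (log2 fold change 0.51, SE 0.098, limma adjusted p = 0.0543). No library crossed between the groups, and this gene passed in 4 of 20 other settings, namely without a filter, with sample quality weights, with voom on the recovered reads and with the length trend removed. Values for dod-19 (0.45, SE 0.14), dod-17 (0.45, SE 0.18) and the peptidyl-prolyl isomerase gene fkb-5 (0.28, SE 0.10) were above 0 with groups that overlapped. The gene dod-22 (-0.20, SE 0.18) and dod-23 (-0.20, SE 0.10) were below 0. The yolk protein genes vit-2 and vit-5, which had the most reads of the list, were at 0.051 and 0.017, and vit-5 has close copies with which reads can be shared.

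**Figure D5:**
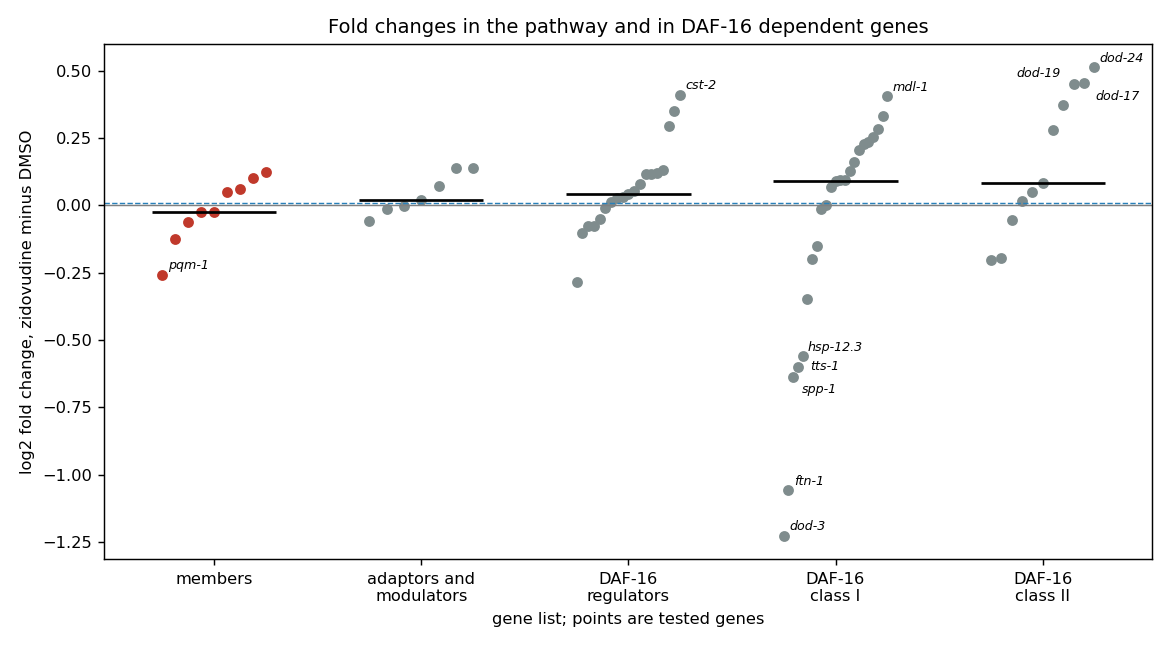
Log2 fold change, zidovudine minus DMSO, of the tested genes of each list, 1 point per gene, with the median of each list as a black line and that of all genes tested as a dashed line at 0.0082. The members lie between -0.26 for pqm-1 and 0.12 for age-1, and class I genes spread from -1.23 for dod-3 to 0.40 for mdl-1.

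Whole worms mix tissues, so fewer cells of a type and less RNA per cell cannot be told apart in these values. Markers of 7 tissues were checked, and none of those in the table was at 0 in all libraries. Intestine markers, which bear on pqm-1 since it is expressed in the intestine, summed to 364 to 439 CPM with zidovudine and 343 to 434 CPM with DMSO, with 3 of 4 tested above 0. Pharynx markers summed to 118 to 149 CPM with zidovudine and 89.7 to 108 CPM with DMSO, with all 4 tested above 0. Body wall muscle had 5 of 5 above 0, neurons 4 of 5, epidermis 2 of 5, and the germ line and oocyte list 4 of 5. Over all genes tested, 52.3% were above 0. Sperm markers summed to 12.1 to 16.6 CPM with zidovudine and 14.7 to 19.2 CPM with DMSO, with 0 of 4 above 0. Median log2 fold changes were 0.45 for pharynx, 0.19 for intestine, 0.17 for body wall muscle and 0.12 for germ line and oocyte. They were 0.066 for neurons, -0.13 for epidermis and -0.39 for sperm, against 0.0082 over all genes tested. No marker passed the adjusted threshold (limma), and 0 passed it with voom on the recovered reads. Of the 32 markers tested, 12 passed the unadjusted threshold, against 11.8% of all genes tested, among them all 4 of the pharynx and 2 of the 4 of sperm. The part of tissue composition in the values of the members was not tested.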

How the data were processed

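RNA of 8 whole-worm samples was sequenced after oligo-dT capture with a directional kit, per the labels' protocols. The authors deposited 1 table of 17826 genes whose columns are called CPM, per the file headers, but which hold log2 CPM with a floor of -4.39 common to all columns. Per the submitters' processing notes, the tools included limma 3.40.6, edgeR 3.26.8, HTSeq 0.11.0, HISAT2 2.1.0 and Trimmomatic 0.32, with no step given for any. The sources used here do not name the genome build, the annotation or the strand setting. Whole reads were recovered from the steps of each column (100% of values whole within 0.05 reads). The prior was 2 reads at the mean library, which pulls fold changes of scarce genes toward 0.

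The 12382 genes averaging 0 log2 CPM or more were fitted by limma-trend in R 4.3.3 (version 3.58.1 of limma, two-sided, with robust moderation) with group as the only term and 6 residual degrees of freedom. The Benjamini-Hochberg adjustment ran over all of them, and the threshold was 0.05. Intervals are 95% intervals from that fit unless another setting is named. Positions and exon lengths came by gene ID from Ensembl release 115 (WBcel235). The lists, other settings and named genes (the 9 members, the 4 with the smallest p of each pathway list, the 3 nearest in pattern to daf-2, daf-16 and pqm-1, and tissue markers) followed written rules. Members and lists were chosen with earlier results of these data known. Some other list members were named after their values were seen. Counting errors cover sampling of reads only.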

Additional observations from a re-analysis of the deposited data

How the results depend on the processing

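Among the 9 members, pqm-1 and age-1 kept their direction in all 20 other settings, and pqm-1 with sample quality weights (-0.28, limma adjusted p = 0.0477) was the only call, making 1 member past the threshold there and 0 in the other 19. The limma adjusted p of pqm-1 ran from 0.0477 to 0.482. The other 7 members, none past the threshold, turned in at least 1 setting. With sample quality weights daf-2 was at 0.028 and daf-16 at 0.0041. Without DMSO 4 and zidovudine 2 together daf-2 was at 0.049, daf-16 at 0.031 and pdk-1 at 0.0054. With the length trend removed daf-18 was at -0.010, and also without DMSO 4, a setting added after seeing the data, daf-18 was at -0.017, akt-1 at -0.028 and sgk-1 at -0.022. Fits that each left out 1 library gave -0.067 to 0.032 for daf-2, -0.082 to 0.013 for daf-16, -0.0031 to 0.10 for akt-1, -0.25 to 0.031 for akt-2, -0.0091 to 0.18 for sgk-1 and -0.28 to -0.24 for pqm-1.

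Of all genes tested, 21 passed, against 13 with quantile normalization, 4 without the mean-variance trend, 12 with library totals only, 148 with sample quality weights, 148 without DMSO 4 and zidovudine 2, and 42 with the length trend removed and without DMSO 4. Leaving out 1 library gave 3 to 41. With the replicate number as a block 9 passed, and pqm-1 was at -0.26 (limma adjusted p = 0.335). The numbers were not taken to pair the samples, since the correlation of deviations between libraries of the same number was 0.067, -0.18, 0.14 and -0.32. Class I genes past the threshold numbered 2 with sample quality weights (ftn-1 and mdl-1), 2 without DMSO 4 and zidovudine 2 (ftn-1 and dod-3), 1 with the length trend removed and without DMSO 4, and 0 to 1 when 1 library was left out. Class II genes numbered 1 without a filter, with sample quality weights, with voom (added after seeing the data) and with the length trend removed. Pharynx markers numbered 3 with sample quality weights, 3 without DMSO 4 and zidovudine 2, 1 with the length trend removed and without DMSO 4, and 0 to 1 when 1 library was left out. Intestine markers numbered 1 without DMSO 4 and zidovudine 2.

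Other genes turned near 0. Without DMSO 4 and zidovudine 2, ama-1 was at 0.034, nrd-1 at 0.010, Y53F4B.39 at 0.015 and acl-7 at 0.043, and with sample quality weights ama-1 was at 0.022 and acl-7 at 0.010. With the length trend removed rps-6 was at 0.0098, and also without DMSO 4 rps-6 was at 0.026, acl-7 at 0.0062 and ist-1 at -0.0050. With 1 library left out ama-1 ran from -0.068 to 0.037 and acl-7 from -0.081 to 0.027. The cause of these shifts was not tested. Depth limits the genes with few reads, such as ftn-1, more than the members. The count tests planned with edgeR and DESeq2 were not run, and voom on the recovered reads was used in their place.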

Other observations

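Several well-known genes of the pathway were too scarce in day 1 adults to be tested. The insulin-like peptide gene ins-7, a class II gene whose product is an agonist of DAF-2, had 15 to 45 reads per library. The metallothionein gene mtl-1, a class I gene, had 10 to 40 reads per library, and the superoxide dismutase gene sod-5 had 0 to 14. In the fit without a filter the log2 fold change was -0.67 for ins-7 (limma adjusted p = 0.566), -0.97 for mtl-1 (limma adjusted p = 0.469) and 0.63 for sod-5 (limma adjusted p = 0.742).

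Of the genes near DAF-2 signalling, eak-6 had 0 to 14 reads per library and sdf-9 0 to 23. Both encode phosphatase-like proteins that act on DAF-16 from the XXX cells, a pair of cells in the head.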
